A study of Oncorhynchus mykiss with 15 samples.

Results

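Salmon-named microRNAs with high family numbers were followed through hypoxia and reoxygenation in the liver of rainbow trout (Oncorhynchus mykiss). Members were the rows of the deposited table whose names begin with ssa, the prefix for Atlantic salmon, and whose miRNA number is at least 700, leaving out miR-731, miR-7550 and miR-9226, with rows of identical values counted once. This gave 24 members of 1213 rows (1019 distinct sets of values), from 13 miRNA numbers, 13 of them from the 5p arm and 11 from the 3p arm of a hairpin. Small RNA was sequenced from livers of wild-type fish in 5 groups of 3 libraries each, namely control fish, fish held in hypoxia for 3, 12 or 24 h, and fish after 3 h of reoxygenation. The labels give neither the oxygen level, the age of the fish nor the length of hypoxia before reoxygenation, and describe the replicates only as separate samples, so a p-value here weighs a difference only against the scatter of these libraries. Values are the deposited normalized scores rounded to whole numbers, here called values, and the number of reads behind them is unknown.

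A microRNA is cut from a hairpin precursor that can give a mature strand from each arm, named 5p and 3p. The strand held by the Argonaute protein finds messenger RNAs mainly through its seed, bases 2 to 8, so strands with 1 seed are grouped as a family, and a base change inside or outside the seed is of different weight. Salmonids carry extra gene copies from a whole-genome duplication in their ancestry. The label rests on number and prefix alone: miR-2188 is also known from birds and frogs. The prefix names the entry that a sequence matched, not the animal sampled. The same numbers occurred in 9 further rows, with cod, zebrafish or carp prefixes. Of these, 3 held the same values as a member, namely ssa-miR-722-3p_L+3R-3, ssa-miR-2188-5p and ssa-miR-724-5p_L-1.

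The sequences below are those of the members on which the results turn, as deposited, from 5′ to 3′, with the seed (bases 2 to 8) in capitals. In the names, L and R with a number give bases added to or missing from the left and right end of the matched entry, and 1ss gives a single base that differs from it. The miR-7132 strands are shown first, because those named a and b after the matched entries differ by few bases. Their precursors in trout were not looked at.
ssa-miR-7132a-5p: gACTTGGTcaaagctcctcagt
ssa-miR-7132b-5p: gACTTGGTcaaagctcctcagc
ssa-miR-7132a-3p_R-1: tGAGAAGTttggaacaagtaa
ssa-miR-7132b-3p: tGAGGCGTttagaacaagttca
Counted from the 5′ end, miR-7132a-5p differed from miR-7132b-5p only by T22C, 1 of 22 bases, and both carried 1 seed. The 3p strands differed at 5 of 21 compared bases, by A5G and A6C within the seed and by G11A, A20T and A21C outside it. The a and b strands therefore had 1 seed in common on the 5p side and 2 different seeds on the 3p side.

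The miR-1338 strands are shown because the 2 abundant 5p forms differ at their first base and in the middle, but not in the seed.
ssa-miR-1338-5p_R+1_1ss1AT: tGGACTGTccaacctgagaatg
ssa-miR-1338-5p_R+1_1ss14CT: aGGACTGTccaacttgagaatg
ssa-miR-1338-3p: aTCTCAGGttcgtcagcccatg
The first of these differed from the second by T1A and C14T. A further 5p form, ssa-miR-1338-5p_R-2_1ss1AT, is a shorter strand of 19 bases with the same seed. Forms this close can share reads, and how the authors' counting assigned them is not given in the sources used here.

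The member with the highest mean over the 15 libraries, ssa-miR-722-3p_L+3R-3, is shown beside ssa-miR-129-5p, which is not a member but had the same letters at bases 2 to 8.
ssa-miR-722-3p_L+3R-3: tTTTTTGCagaaacgtttcaga
ssa-miR-129-5p: cTTTTTGCggtctgggcttgc
By its name, the miR-722 strand begins 3 bases before the matched salmon entry. Counted from the 5′ end of that entry the seed lies at bases 5 to 11 of the strand, written ttttTTGCAGAaacgtttcaga, and 0 other rows held it. miR-129, known chiefly from brain, averaged 5.67 over the 15 libraries, against 5413 for the miR-722 strand.

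The other strands given library by library below, and 1 row that had a seed in common with a member, follow.
ssa-miR-725-3p: tTCAGTCAttgtttctggtagt
ssa-miR-725-5p: aGCTAGAAaccttgcctgagat
ssa-miR-2188-5p: aAGGTCCAacctcacatgtcct
ssa-miR-2188-3p_1ss14AG: gCTGTGTGaggtcggacctatc
ssa-miR-8159-5p_R-1: tCAGTAACtggaatctgtccctg
ssa-miR-459-5p_R-1: tCAGTAACaaggattcatcctg
ssa-miR-8163-3p: tCAGGTCAcatgttcaggata
miR-8159-5p had the seed of ssa-miR-459-5p_R-1, which is not a member and averaged 460 over the 15 libraries. Over all 24 members there were 21 different seeds, and the repeated ones were those of the miR-7132 5p pair and the 3 miR-1338 5p forms.

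The members were a minor fraction of liver miRNA. Their summed value ran from 13178 to 24042 per library, which was 0.302% to 1.11% of the library total over distinct sets of values. Their mean values ran from 0.467 for ssa-miR-723-3p_R-1 to 5413 for ssa-miR-722-3p_L+3R-3, with 5 members above 1000 and 12 under 100. The median member averaged 123, compared with 217 for the 287 salmon-named rows with lower numbers and 20.6 for all rows. Rows with a mean of at least 10 were tested, which kept 18 of the 24 members, 246 of those 287 rows and 752 rows in all. The member nearest above that limit, ssa-miR-8163-5p_R-1_1ss19GT, averaged 13.5, and the nearest below it, ssa-miR-2184-3p_1ss4CT, 8.93.

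The libraries differed in ways that touch these results, and no batch is given in the labels. Library totals ran from 2090585 to 6181106. Forms of miR-122, the main miRNA of hepatocytes, took 55.7% to 60.2% of the total after 12 h of hypoxia, against 24.7% to 33.6% in control and 21.5% to 35.7% at 3 h. Its share was 59.0%, 35.7% and 25.2% at 24 h and 57.2%, 26.5% and 52.9% in the reoxygenation group. Library 1 stood apart from the other 2 of its group in reoxygenation, where the SDs of its log2 differences to them were 2.87 and 2.91 and they differed from each other by 1.42. The same held less strongly for library 1 of 24 h hypoxia (2.15 and 2.05, against 1.33) and of control (1.83 and 1.72, against 1.06). Smaller gaps in the same direction were found for library 1 of 12 h hypoxia (1.36 and 1.39, against 1.01) and of 3 h hypoxia (1.38 and 1.36, against 1.15). All marker miRNAs looked for had rows: 3 of 3 for hepatocytes, 1 of 1 for endothelium (miR-126), 3 of 3 for red cells, 4 of 4 for white cells, 4 of 4 for stroma, 3 of 3 for epithelium and 3 of 3 for muscle. miR-486 of the red cell list was at 0 in 8 libraries and miR-206 of the muscle list in 7. The hepatocyte sum was 3284984 to 3536916 at 12 h, against 549923 to 1443583 in control, and the miR-126 sum was 41161 to 49088, against 5052 to 18228. Most of the hepatocyte sum was miR-122, at 477907 to 3649889 over the 15 libraries. miR-192 ran from 15057 to 48219 and miR-194 from 8341 to 37977. For muscle the sum was 71 to 162 at 12 h and 76 to 139 in control, for white cells 3254 to 4772 at 12 h and 3998 to 5333 in control, and for red cells 5145 to 7436 at 12 h and 3010 to 8008 in control. For epithelium it was 6177 to 6794 at 12 h and 9061 to 10909 in control, and for stroma 100756 to 120217 at 12 h and 94115 to 142720 in control. The part of these markers in the results below was not tested.

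**Figure D1:**
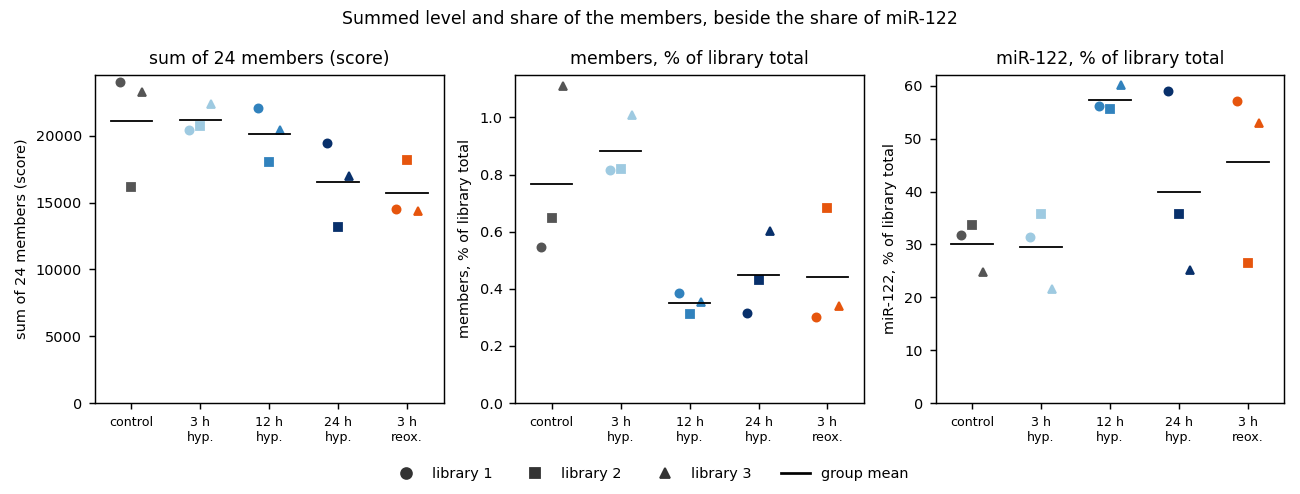
Summed value of the 24 members (left), the members as percent of the library total (middle) and miR-122 as percent of the library total (right), one point per library with the group mean as a line, for control, 3, 12 and 24 h of hypoxia (hyp.) and 3 h of reoxygenation (reox.). The members' share was 0.312% to 0.385% in the 12 h libraries, where miR-122 took 55.7% to 60.2%, while their summed value of 18019 to 22057 overlapped that in control. Of the 12 h sum, 9278 to 10586 was ssa-miR-722-3p_L+3R-3 alone, against 2685 to 4132 in control.

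On the deposited scale the members' sum in each group overlapped that in control, while all 3 h sums lay above all those of 24 h and of reoxygenation. It ran from 16136 to 24042 in control, from 20428 to 22368 at 3 h, from 18019 to 22057 at 12 h, from 13178 to 19456 at 24 h and from 14370 to 18192 following reoxygenation. Much of it came from ssa-miR-722-3p_L+3R-3 and ssa-miR-725-3p, together 68.7%, 26.8% and 44.9% in control and 71.7%, 61.1% and 61.1% at 12 h. At 12 h ssa-miR-722-3p_L+3R-3 alone was at 10076, 9278 and 10586, against 3726, 2685 and 4132 in control. The overlap of the sums therefore does not show that the other members were level. As a percent of the library total the members averaged 0.769 ± 0.301 in control (SD, n = 3 in each group), 0.881 ± 0.11 at 3 h, 0.350 ± 0.0362 at 12 h, 0.450 ± 0.145 at 24 h and 0.442 ± 0.21 in the reoxygenation group. The share of miR-122 enters the denominator of these percentages, and its part in them was not tested.

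The question put by the series is how liver miRNAs differ with the duration of hypoxia and after reoxygenation. After 12 h of hypoxia 2 members were higher than in control, ssa-miR-722-3p_L+3R-3 and ssa-miR-7132a-3p_R-1, and none was lower. Tests used limma on log2(value + 1) over all 752 tested rows, with Benjamini-Hochberg adjustment over those rows and a threshold of 0.05. The 2 calls of 18 tested members stand beside 54 calls in 752 rows, 7.18%, and beside 5.19% of rows called higher. Among the members 10 of 18 differences were above 0, with a median log2 difference of 0.26, while the median over all rows was -0.20. When values were scaled to the library total, the median of all rows became -1.21 and that of the members -0.76, with 5 members above 0 and 13 below, so each direction at 12 h holds on the deposited scale and is relative to these shifts. That scaling also changed the split of all calls to 7 higher and 68 lower, against 39 higher and 15 lower as deposited.

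**Figure D2:**
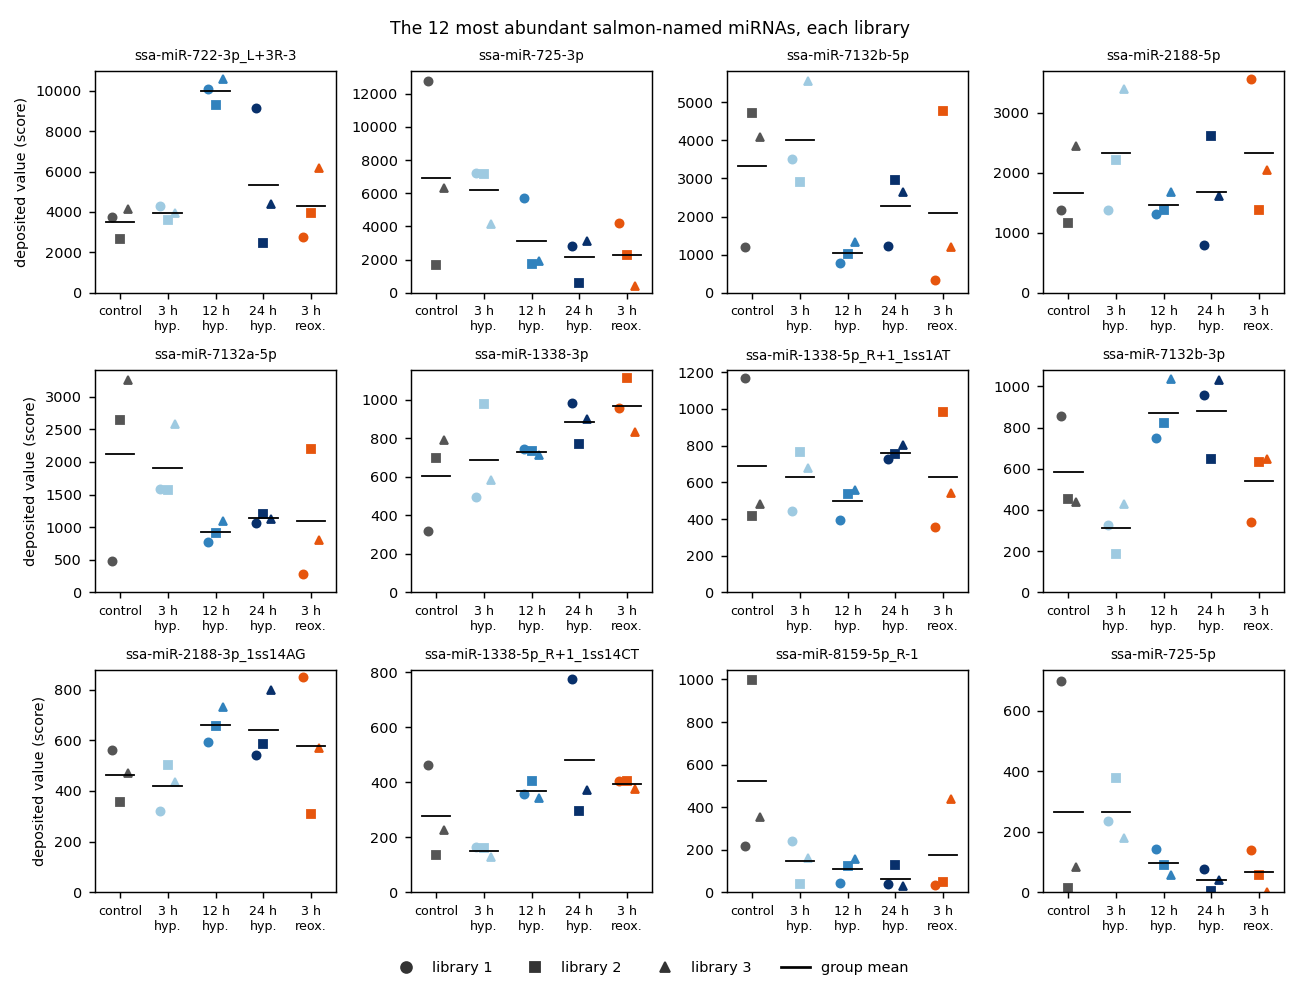
Deposited value of the 12 most abundant members in each library, one panel per member with its own linear axis from 0, one point per library and a line at the group mean, for control, 3, 12 and 24 h of hypoxia (hyp.) and 3 h of reoxygenation (reox.). The 3 libraries of 12 h hypoxia lay between 9278 and 10586 for ssa-miR-722-3p_L+3R-3, above all 3 controls, and most other panels show overlapping groups.

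miR-722, which in zebrafish restrains the movement of neutrophils by targeting the small GTPase rac2, had the strand with the highest mean over the 15 libraries, although miR-725-3p averaged more in control and at 3 h. ssa-miR-722-3p_L+3R-3 was at 3726, 2685 and 4132 in control, 4290, 3604 and 3941 at 3 h of hypoxia, 10076, 9278 and 10586 at 12 h, 9133, 2464 and 4415 at 24 h, and 2756, 3924 and 6192 after reoxygenation. The 12 h libraries were close to each other and above every library of the other groups, library 1 of 24 h hypoxia being the next highest. In that 24 h library miR-122 took 59.0% of the total, a share in the range of the 12 h libraries. Libraries 1 and 3 of reoxygenation, where the strand was at 2756 and 6192, had miR-122 shares of 57.2% and 52.9%. The part of miR-122 in these values was not tested. The strand averaged 9980 ± 659 at 12 h and 3514 ± 746 in control (SD, n = 3 each), a log2 difference of 1.53 ± 0.42 (SE; 2.88-fold), with a limma adjusted p of 0.0402. Whether more RNA per cell or more cells of a type holds it cannot be told apart in whole liver, here and below. The call was lost on the scale of the library total (0.51, limma adjusted p = 0.397), without miR-122 in that total (1.22, 0.102), with quantile normalization (1.48, 0.0536) and with a correction for GC content in each library (0.32, 0.683). This strand has 31.8% GC. It was also lost without library 2 or 3 of control (1.34 and 1.66, limma adjusted p of 0.161 and 0.0750) and without library 1, 2 or 3 of 12 h hypoxia (1.52, 1.58 and 1.48, limma adjusted p of 0.139, 0.103 and 0.117). Without library 1 of control, of 24 h hypoxia and of reoxygenation together, the difference was 1.58 (limma adjusted p = 0.00540). These libraries were picked after the data were seen, and 240 of 752 rows passed in that fit, against 54 in the main fit.

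The 5p strand of the same hairpin was rare. ssa-miR-722-5p_L-1R+1 was at 4, 9 and 18 in control, 43, 9 and 50 at 3 h, 61, 21 and 37 at 12 h, 35, 17 and 17 at 24 h, and 20, 6 and 40 after reoxygenation. It was picked for its non-overlapping 12 h and control groups after its values were seen, and did not pass (log2 difference 1.92 ± 0.85 SE, limma adjusted p = 0.159). The 3p strand exceeded it in every library, by 78.8-fold to 932-fold with a median of 260-fold.

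The miR-7132 group gave 4 strands that differed widely in level and in pattern. ssa-miR-7132a-3p_R-1 was at 0, 0 and 10 in control, 0, 5 and 0 at 3 h, 70, 50 and 48 at 12 h, 101, 7 and 6 at 24 h, and 25, 13 and 27 after reoxygenation. All 3 values at 12 h lay above those of control and of 3 h hypoxia, and only 1 library, the first of 24 h hypoxia, with the high miR-122 share given above, exceeded them. Libraries 1 and 3 of reoxygenation, with miR-122 shares of 57.2% and 52.9%, were at 25 and 27. It averaged 56.0 ± 12.2 at 12 h and 3.33 ± 5.77 in control (SD, n = 3 each), with a log2 difference of 4.66 ± 1.21 SE and a limma adjusted p of 0.0344. The controls are at or near 0, so the size of the difference depends on the pseudocount: it was 2.37 with a pseudocount of 10 (limma adjusted p = 0.0355). The call was lost with the GC correction (3.62, limma adjusted p = 0.115; this strand has 33.3% GC), on the scale of the library total (3.81, 0.0565) and of the total without miR-122 (4.31, 0.0664). It was lost too without library 1 or 2 of control (4.08 in both, limma adjusted p of 0.0539 and 0.125) and without library 1, 2 or 3 of 12 h hypoxia (4.49, 4.73 and 4.76, limma adjusted p of 0.128, 0.0946 and 0.0916). Without library 1 of control, of 24 h hypoxia and of reoxygenation it was 4.08 (limma adjusted p = 0.0139). That choice was made after the data were seen, and it raised the calls over all rows from 54 to 240.

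The 3p strand named b was far more abundant than the one named a. ssa-miR-7132b-3p was at 857, 454 and 437 in control, 328, 187 and 428 at 3 h, 747, 824 and 1035 at 12 h, 960, 647 and 1032 at 24 h, and 340, 632 and 645 after reoxygenation. The 3 h libraries were the lowest group and all lay under all controls, while the 12 h and 24 h groups overlapped control because of the high control library 1. Against control, its log2 difference was -0.90 ± 0.42 SE at 3 h (limma adjusted p = 0.995) and 0.63 ± 0.42 SE at 12 h (limma adjusted p = 0.337). The 12 h direction depended on the scale, being -0.38 on the library total (limma adjusted p = 0.579).

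The 5p strands were the abundant ones under both names, a and b. ssa-miR-7132b-5p was at 1203, 4726 and 4089 in control, 3514, 2919 and 5568 at 3 h, 787, 1010 and 1340 at 12 h, 1220, 2969 and 2644 at 24 h, and 344, 4758 and 1210 after reoxygenation. ssa-miR-7132a-5p was at 476, 2639 and 3256 in control, 1578, 1570 and 2586 at 3 h, 780, 917 and 1095 at 12 h, 1071, 1201 and 1133 at 24 h, and 289, 2198 and 810 after reoxygenation. In control, library 1 was low for both 5p strands, so that control and 12 h overlapped for both. Neither passed at 12 h, with log2 differences of -1.48 ± 0.75 SE for miR-7132b-5p (limma adjusted p = 0.210) and -0.79 ± 0.70 SE for miR-7132a-5p (limma adjusted p = 0.484). Without library 1 of control, of 24 h hypoxia and of reoxygenation both passed, at -2.10 (limma adjusted p = 0.0101) and -1.67 (limma adjusted p = 0.0115). Those libraries were picked after the data were seen, and they include the low control that made the groups overlap. In that fit 240 of 752 rows passed in limma, against 54 in the main fit, so it gives no separate support for these strands. The log2 values of the 2 strands, which differ by 1 base and can share reads, had a Pearson r of 0.92 over the 15 libraries, which are the same for both. For the 2 abundant miR-1338-5p forms, which can share reads too, r was 0.26, and for miR-7132b-5p with miR-7132b-3p it was -0.26. The part of shared reads in these values was not tested.

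Ratios within a library, chosen after the data were seen, are unchanged by a single scaling factor per library, but a correction by base content can move them. The ratio of the 5p to the 3p strand of miR-7132b was 1.40, 10.4 and 9.36 in control, 10.7, 15.6 and 13.0 at 3 h, 1.05, 1.23 and 1.29 at 12 h, 1.27, 4.59 and 2.56 at 24 h, and 1.01, 7.53 and 1.88 after reoxygenation. The 5p strand was the larger in all 15 libraries, but at 12 h the 2 strands were almost equal. The 12 h ratios lay below all controls, by -2.12 on the log2 scale, and the 3 h ratios lay above them, by 1.33. With the GC correction these differences were -0.68 and 1.53, the 5p strand having 54.5% GC and the 3p strand 40.9%. Both gave an exact two-sided permutation p of 0.1, the smallest that 3 libraries against 3 can give, and an adjusted p of 0.375 over 15 such tests, 3 ratios in 5 comparisons. Arm ratios of miR-722, miR-725, miR-2188, miR-1338 and miR-8163 were computed too but not tested. The adjustment therefore does not cover how the 3 tested ratios were picked. Library 1 had the lowest miR-7132b ratio in every group. This held in control (1.40), at 24 h (1.27) and after reoxygenation (1.01), where library 1 stands apart in its group. It held as well at 3 h (10.7) and at 12 h (1.05).

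The ratio of the a to the b strand on the 5p side was 0.396, 0.558 and 0.796 in control, 0.449, 0.538 and 0.464 at 3 h, 0.991, 0.908 and 0.817 at 12 h, 0.878, 0.405 and 0.429 at 24 h, and 0.840, 0.462 and 0.669 after reoxygenation. The b strand was thus the larger in all 15 libraries, and the strands were closest to equal at 12 h. The 12 h ratios lay above all controls, by 0.69 on the log2 scale (exact two-sided permutation p = 0.1, adjusted p = 0.375), and by 0.14 with the GC correction. Another 5p form, with zebrafish and cod names and not a member, differs from miR-7132a-5p by A10T and averaged 101 over the 15 libraries.

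**Figure D3:**
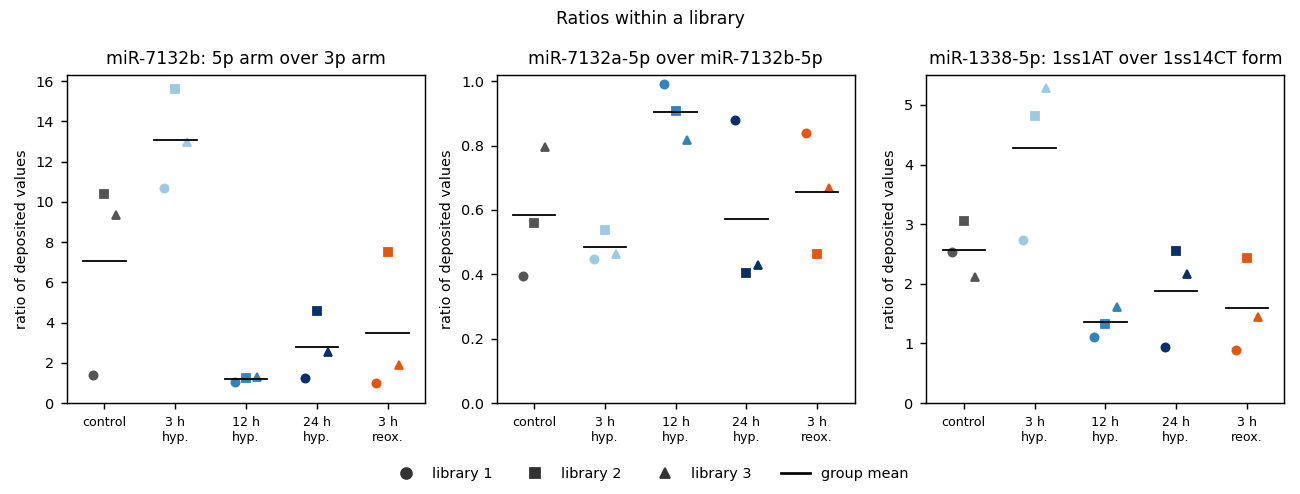
Ratio of deposited values within each library: 5p over 3p strand of miR-7132b (left), miR-7132a-5p over miR-7132b-5p (middle), and the 1ss1AT over the 1ss14CT form of miR-1338-5p (right), on linear axes from 0, one point per library and a line at the group mean, for control, 3, 12 and 24 h of hypoxia (hyp.) and 3 h of reoxygenation (reox.). At 12 h the first ratio was 1.05 to 1.29, the second 0.817 to 0.991 and the third 1.11 to 1.62, each apart from the 3 controls.

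Both arms of the miR-1338 hairpin were measured. ssa-miR-1338-3p was at 319, 699 and 794 in control, 497, 980 and 582 at 3 h, 746, 735 and 713 at 12 h, 983, 769 and 902 at 24 h, and 956, 1114 and 833 after reoxygenation. Its spread within groups, 0.411 as an SD of log2 values, was the smallest of the 18 tested members, whose median was 0.992 against 0.83 for all tested rows. All 3 reoxygenation libraries were above all controls, but the difference did not pass (0.77 ± 0.38 SE, 1.71-fold, limma adjusted p = 0.333). It passed with the GC correction, at 1.49 (limma adjusted p = 0.0485).

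The 2 abundant 5p forms of miR-1338 had 1 seed in common. The form 1ss1AT was at 1169, 418 and 483 in control, 446, 764 and 677 at 3 h, 397, 536 and 556 at 12 h, 729, 754 and 801 at 24 h, and 358, 984 and 542 after reoxygenation. The form 1ss14CT was at 462, 137 and 228 in control, 163, 159 and 128 at 3 h, 359, 404 and 343 at 12 h, 776, 296 and 370 at 24 h, and 405, 403 and 377 after reoxygenation. Control library 1 was the highest control for both, and all groups overlapped control for both. Against control at 12 h the form 1ss1AT differed by -0.33 ± 0.45 SE (limma adjusted p = 0.674) and the form 1ss14CT by 0.59 ± 0.45 SE (limma adjusted p = 0.415). Neither direction was stable: that of 1ss1AT was 0.12 with the GC correction and 0.13 without library 1 of control, and that of 1ss14CT was -0.42 on the library total. Without library 1 of control, of 24 h hypoxia and of reoxygenation, the form 1ss14CT passed at 1.05 (limma adjusted p = 0.0285). Leaving out these libraries was decided after the data were seen, removed the highest control, and raised the calls over all rows from 54 to 240.

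The ratio of 1ss1AT to 1ss14CT was 2.53, 3.05 and 2.12 in control, 2.74, 4.81 and 5.29 at 3 h, 1.11, 1.33 and 1.62 at 12 h, 0.939, 2.55 and 2.16 at 24 h, and 0.884, 2.44 and 1.44 after reoxygenation. The 1ss1AT form was the larger in 13 of 15 libraries, the exceptions being the first library of each of the 24 h and reoxygenation groups. All 12 h ratios lay below all controls, by -0.93 on the log2 scale (exact two-sided permutation p = 0.1, adjusted p = 0.375), and by -0.46 with the GC correction. The summed 5p forms were 0.797 to 5.15 times the 3p strand, with a median of 1.25, so that both arms of this hairpin were present at similar values.

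miR-2188 acts in blood vessel growth in zebrafish. ssa-miR-2188-5p was at 1377, 1165 and 2440 in control, 1372, 2214 and 3391 at 3 h, 1310, 1383 and 1678 at 12 h, 788, 2619 and 1618 at 24 h, and 3561, 1371 and 2043 after reoxygenation. ssa-miR-2188-3p_1ss14AG was at 561, 355 and 470 in control, 322, 501 and 434 at 3 h, 591, 655 and 732 at 12 h, 542, 586 and 797 at 24 h, and 850, 310 and 570 after reoxygenation. The 5p strand overlapped control in every group, whereas the 3p strand was above all controls at 12 h. That 3p difference did not pass (0.53 ± 0.39 SE, 1.45-fold, limma adjusted p = 0.389). Its direction depended on the scale: it was -0.49 on the library total (limma adjusted p = 0.433) and 2.00 with the GC correction (limma adjusted p = 0.0305), the GC content of the strand being 59.1%, the highest of the members. The 5p strand was the larger in all 15 libraries, by 1.45-fold to 7.81-fold. At 12 h it was 2.22, 2.11 and 2.29 times the 3p strand, below 2.45, 3.28 and 5.19 in control, a difference that was not tested. The other untested arm ratios, of miR-722, miR-725, miR-1338 and miR-8163, overlapped control at 12 h. The sum of miR-126, the endothelial marker, was higher in all 12 h libraries than in all controls, as given above, and its part in the miR-2188 values was not tested.

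miR-725 varied most. ssa-miR-725-3p was at 12780, 1647 and 6306 in control, 7234, 7172 and 4132 at 3 h, 5736, 1737 and 1888 at 12 h, 2841, 597 and 3112 at 24 h, and 4217, 2260 and 438 after reoxygenation. ssa-miR-725-5p was at 700, 15 and 84 in control, 234, 377 and 180 at 3 h, 143, 89 and 57 at 12 h, 75, 4 and 39 at 24 h, and 141, 58 and 0 after reoxygenation. On the deposited scale the controls alone covered nearly the whole range of either strand, and all groups overlapped control. On the log2 scale they covered less of it, since 597 and 438 of the 3p strand and 4 and 0 of the 5p strand lay below all controls. Within groups the SD of log2 values was 1.27 for the 3p strand and 2.32 for the 5p strand. The latter was the largest among the tested members, and that strand fell to 0, 4 and 15 in single libraries. The 3p strand was exceeded also by ssa-miR-730a-5p (1.84), ssa-miR-7132a-3p_R-1 (1.51) and ssa-miR-8159-5p_R-1 (1.36). Across libraries both strands varied alike, with a Pearson r of 0.93 between their log2 values over the same 15 libraries. The largest mean difference of the 3p strand from control, -1.66 ± 0.88 SE after reoxygenation, did not pass (limma adjusted p = 0.349).

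ssa-miR-8159-5p_R-1 was at 216, 996 and 352 in control, 241, 40 and 162 at 3 h, 42, 123 and 158 at 12 h, 39, 126 and 27 at 24 h, and 35, 49 and 437 after reoxygenation. The 12 h and 24 h libraries lay below all controls, and the 3 h and reoxygenation groups overlapped control through 1 library each. The log2 difference was -2.16 ± 0.97 SE at 12 h (limma adjusted p = 0.167) and -3.02 ± 0.97 SE at 24 h (limma adjusted p = 0.162), neither of which passed. ssa-miR-8163-3p was at 113, 123 and 96 in control, 130, 124 and 65 at 3 h, 130, 147 and 93 at 12 h, 80, 38 and 38 at 24 h, and 130, 51 and 127 after reoxygenation. Its 24 h libraries were below all controls and below all 12 h libraries, without passing against control (-1.16 ± 0.50 SE, limma adjusted p = 0.304).

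The remaining tested members were low. ssa-miR-730a-5p ranged from 0 to 52, ssa-miR-8160-5p from 0 to 29 and ssa-miR-8163-5p_R-1_1ss19GT from 0 to 48 over the 15 libraries. ssa-miR-8160-5p was at 6, 4 and 5 after reoxygenation and at 11, 29 and 20 in control, groups that did not overlap but whose difference did not pass (-1.72 ± 0.93 SE, limma adjusted p = 0.354). It was picked for this after its values were seen. The 6 members left untested for low means reached at most 38 (ssa-miR-2184-3p_1ss4CT), 22 (ssa-miR-724-5p_L-1), 20 (ssa-miR-1338-5p_R-2_1ss1AT), 14 (ssa-miR-734-3p_1ss22TC), 7 (ssa-miR-8160-2-3p) and 3 (ssa-miR-723-3p_R-1) in any library. Of all 24 members, 13 were above 0 in every library.

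**Figure D4:**
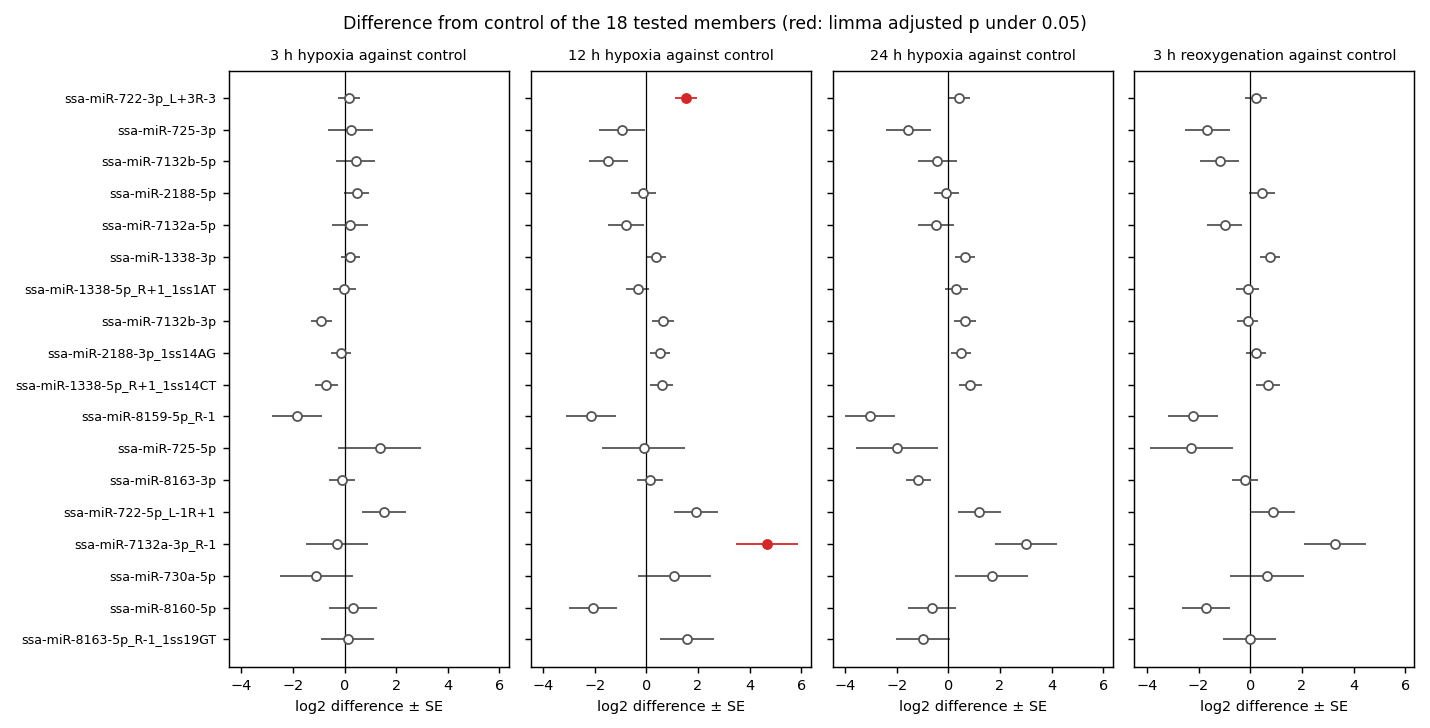
Log2 difference from control of the 18 tested members in the 4 comparisons with control, each point with its standard error from the limma fit of all 752 tested rows, members ordered by mean value from the top. Filled red points, with a limma adjusted p under 0.05, occur at 12 h for ssa-miR-722-3p_L+3R-3 (1.53) and ssa-miR-7132a-3p_R-1 (4.66), and all other points are open.

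In the other comparisons with control, and in reoxygenation against 24 h of hypoxia, no member passed. After 3 h of hypoxia 0 of 18 members and 0 of 752 rows (0%) passed in limma, and at an unadjusted p under 0.05 there were 1 member, miR-7132b-3p, and 13 rows (1.73%). After 24 h no member passed, against 5 rows in all (0.665%). At an unadjusted p under 0.05 there were 3 members (miR-8159-5p, miR-7132a-3p and miR-8163-3p) and 100 rows (13.3%). After reoxygenation no member passed, against 16 rows (2.13%). At an unadjusted p under 0.05 there were 2 members (miR-7132a-3p and miR-8159-5p) and 120 rows (16%). The members named at unadjusted p were picked after their values were seen. Reoxygenation against 24 h of hypoxia gave no member and 0 rows (0%), with 0 members and 28 rows (3.72%) at an unadjusted p under 0.05. The 4 comparisons with control use the same 3 control libraries. Median log2 differences of the members were 0.15 for 3 h, 0.11 for 24 h and -0.06 for reoxygenation against control, and -0.22 for reoxygenation against 24 h, beside -0.01, -0.16, -0.11 and 0.05 over all rows. An F-test of any difference among the 5 groups passed for 1 member, ssa-miR-7132a-3p_R-1 (limma adjusted p = 0.0496), against 48 rows in all (6.38%). It no longer passed with a pseudocount of 10, without a filter or on either library total. The call was also lost with 1 row per set of values, with the replicate block and with the GC correction. With a single library left out, it passed only without library 3 of control (limma adjusted p = 0.0280), library 1 of 24 h hypoxia (limma adjusted p = 0.0296) or library 1 of reoxygenation (limma adjusted p = 0.0337). With the GC correction the F-test passed for miR-2188-3p alone among the members (limma adjusted p = 0.0372), and without library 1 of control for the form 1ss14CT of miR-1338-5p alone (limma adjusted p = 0.0366).

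Counts of members whose groups did not overlap were read against all rows. At 3 h, 1 of 18 members (miR-7132b-3p, lower) was apart from control, beside 5.85% of rows (3.99% lower). At 12 h it was 5 of 18 (miR-722-3p, miR-722-5p, miR-7132a-3p and miR-2188-3p higher and miR-8159-5p lower), beside 40.7% of rows (16.9% higher and 23.8% lower). For 24 h there were 2 of 18, miR-8159-5p and miR-8163-3p, both lower, beside 15.7% of rows (9.84% lower). After reoxygenation 3 of 18 were apart, miR-1338-3p and miR-7132a-3p higher and miR-8160-5p lower, beside 16.2% of rows (7.18% higher and 9.04% lower). miR-7132a-3p, at 25, 13 and 27 after reoxygenation against 0, 0 and 10 in control, was picked here after its values were seen and did not pass (3.29 ± 1.21 SE, limma adjusted p = 0.210). Between reoxygenation and 24 h of hypoxia, 1 of 18 was apart, miR-7132b-3p, lower by -0.74 ± 0.42 SE (limma adjusted p = 0.962), beside 5.05% of rows (2.79% lower).

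The durations of hypoxia were also compared with each other, a comparison that was added after the data were seen. Control libraries do not enter these differences, but they enter the scatter against which limma weighed them, since all 5 groups were in 1 fit. At 12 h against 3 h, 3 of 18 members passed, all higher, beside 126 of 752 rows (16.8%), of which 8.64% of rows were higher. ssa-miR-7132b-3p averaged 869 ± 149 at 12 h and 314 ± 121 at 3 h (SD, n = 3 each), a log2 difference of 1.53 ± 0.42 SE (2.89-fold, limma adjusted p = 0.0253). ssa-miR-722-3p_L+3R-3 averaged 9980 ± 659 at 12 h and 3945 ± 343 at 3 h and so differed on the log2 scale by 1.34 ± 0.42 SE (limma adjusted p = 0.0413). ssa-miR-7132a-3p_R-1 averaged 56.0 ± 12.2 at 12 h and 1.67 ± 2.89 at 3 h and so differed on the log2 scale by 4.95 ± 1.21 SE (limma adjusted p = 0.0179). At 24 h against 3 h only miR-7132b-3p passed, at 880 ± 205 after 24 h and 314 ± 121 after 3 h, with a log2 difference of 1.53 ± 0.42 SE (limma adjusted p = 0.0469), beside 37 rows in all (4.92%). At 24 h against 12 h no member and 0 rows (0%) passed in limma, with 3 members (miR-722-3p, miR-8163-3p and miR-8163-5p) and 128 rows (17%) at an unadjusted p under 0.05. These members were picked after their values were seen. miR-8163-5p averaged 13.5 over the 15 libraries, near the limit of 10 for testing, and 30.7 at 12 h, its highest group. Its 12 h values thus helped it into the test, and its difference is not independent of the filter. On the scale of the library total the 12 h against 3 h differences of miR-7132b-3p and miR-722-3p were 0.28 and 0.09 (limma adjusted p of 0.686 and 0.885), and that of miR-7132a-3p was 4.20 (limma adjusted p = 0.0251). Groups did not overlap for 10 of 18 members at 12 h against 3 h (50.8% of rows), for 9 at 24 h against 3 h (30.6%) and for 5 at 24 h against 12 h (25.9%).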

How the data were processed

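Small RNA of 15 liver libraries, 5 groups of 3, was sequenced on an Illumina instrument after Trizol extraction, per the labels' protocols. The authors deposited 1 table with a score per miRNA row and library, normalized by the authors in an unstated way and rounded to whole numbers. Its name says TPM, but totals differ between libraries, so it was read neither as TPM nor as raw counts. A p-value per row was deposited too, by an unnamed test. Aligner and build: not given in the sources used here. No genome was used.

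Rows with a mean of at least 10 (752) were fitted with limma 3.58.1 in R 4.3.3 on log2(value + 1), on which changes of low rows appear smaller, with a trended variance, all 5 groups in 1 fit and Benjamini-Hochberg adjustment over all tested rows in each comparison (threshold 0.05). The edgeR test set out for raw counts was not used. Exact permutation tests ran in scipy 1.17.1. The fit was tested on simulated data. Given library by library were the 10 most abundant members, every member that passed, and members with groups apart in a comparison (at most 5 each) where 1 group averaged at least 50. Members and marker lists were chosen with earlier results of these data known.

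Other settings were a pseudocount of 10, no filter, division by the library total (also with miR-122 left out of it), quantile normalization, a lowess GC correction per library (span 0.5), 1 row per set of values, a replicate block, fits of the compared groups, and single libraries left out. Comparisons between durations, ratios (also GC-corrected), and the fit without library 1 of control, of 24 h hypoxia and of reoxygenation were chosen after seeing the data.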

Additional observations from a re-analysis of the deposited data

Results flagged for a closer look

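Durations of hypoxia were compared with each other only after the data were seen. At 12 h against 3 h, 3 of 18 members passed, beside 126 of 752 rows (16.8%), so the members were called about as often as all rows. At 24 h against 3 h, 1 of these members, ssa-miR-7132b-3p, passed, beside 37 rows (4.92%). ssa-miR-722-3p_L+3R-3 was higher at 12 h than at 3 h by 1.34 ± 0.42 SE on the log2 scale (limma adjusted p = 0.0413), with all 3 libraries of 12 h above all 3 of 3 h. ssa-miR-7132b-3p was higher at 12 h than at 3 h by 1.53 ± 0.42 SE (limma adjusted p = 0.0253) and at 24 h than at 3 h by 1.53 ± 0.42 SE (limma adjusted p = 0.0469), again with 3 of 3 libraries above. ssa-miR-7132a-3p_R-1 was higher at 12 h than at 3 h by 4.95 ± 1.21 SE (limma adjusted p = 0.0179), and by 2.51 with a pseudocount of 10, since its 3 h libraries were at 0, 5 and 0. Over 16 other settings, the first of these passed in 6, with a range of 0.09 to 1.40, the second in 7 at 12 h (0.28 to 1.79) and in 5 at 24 h (0.89 to 1.80), and the third in 11 (2.51 to 5.81). In the 12 h libraries miR-122 took 55.7% to 60.2% of the total, against 21.5% to 35.7% at 3 h, and its part in these differences was not tested.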

How the results depend on the processing

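At 12 h against control 2 members passed. The number was 0 when scaled to the library total, with or without miR-122, 1 with quantile normalization, 1 with the GC correction (ssa-miR-2188-3p_1ss14AG, neither of the 2), 5 without library 1 of control, 24 h hypoxia and reoxygenation, and 0 to 1 with a single library left out. After reoxygenation it was 0, and 1 with the GC correction. At 12 h against 3 h it was 3: 6 on the library total, 1 on the total without miR-122, 7 with the compared groups alone, 6 without the 3 library 1s, and 0 to 1 with a single library left out. Of the 3, only ssa-miR-7132a-3p_R-1 was among the 6 on the library total, and all others of those 6 were lower at 12 h. At 24 h against 3 h it was 1: 0 without a filter, on either total, with quantile normalization, with 1 row per set of values and with the compared groups alone, 2 with the GC correction, 3 without the 3 library 1s, and 0 to 2 with a single library left out. At 24 h against 12 h it was 0, 3 without the 3 library 1s, and 0 to 1 with a single library left out. For any difference among the groups it was 1: 0 with a pseudocount of 10, without a filter, on either total and with 1 row per set of values, 7 without the 3 library 1s, and 0 to 2 with a single library left out. The other counts stayed at 0 in every setting run. The cause of these differences was not tested. Of the 22 single differences recomputed in every setting, 4 changed sign in at least 1, all at 12 h against control: those of ssa-miR-2188-3p_1ss14AG (-0.49), ssa-miR-7132b-3p (-0.38) and ssa-miR-1338-5p_R+1_1ss14CT (-0.42) on the library total, and that of ssa-miR-1338-5p_R+1_1ss1AT with the GC correction (0.12) and without library 1 of control, alone or with the other 2 (0.13; -0.61 to 0.13 with a single library left out).

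With the replicate number as a block 2 members passed at 12 h against control, 5 at 12 h against 3 h, 2 at 24 h against 3 h and 0 in the F-test. Libraries with 1 number had correlations of deviations from -0.288 to 0.535, against -0.554 to 0.437 between numbers. These ranges overlap, which neither shows nor excludes pairing, so whether the numbers pair the samples cannot be told.

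Over all rows, the 54 calls at 12 h against control became 20 on the total without miR-122, 18 with the GC correction, 121 with the compared groups alone, 240 without the 3 library 1s and 4 to 109 with a library left out. The 5 calls at 24 h became 10 with a pseudocount of 10, 9 with the GC correction, 84 without the 3 library 1s and 0 to 30 with a library left out. The 16 after reoxygenation became 25 with quantile normalization, 0 with the compared groups alone, 95 without the 3 library 1s and 4 to 56. The 126 at 12 h against 3 h became 230 on the library total, 267 with the compared groups alone, 277 without the 3 library 1s and 7 to 77. Their split on the library total was 17 higher and 213 lower, against 65 higher and 61 lower as deposited. The 37 at 24 h against 3 h became 15 without a filter, 24 on the total without miR-122, 6 with the compared groups alone, 123 without the 3 library 1s and 5 to 39. The 0 at 24 h against 12 h became 168 without the 3 library 1s and 0 to 36, and the 48 of the F-test 28 on the total without miR-122, 283 without the 3 library 1s and 18 to 98.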

Other observations

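A p-value under 0.05 stands in the authors' deposited table for 3 of 24 members (12.5%), beside 230 of 1213 rows (19.0%). They are ssa-miR-722-3p_L+3R-3 (0.00736), ssa-miR-8160-5p (0.0148) and ssa-miR-7132b-3p (0.0157) in that authors' deposited table, whose test is not named.

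Several hairpins left both strands in the libraries, and which strand led was fixed for most of them. The 3p strand of miR-725 was 18.3 to 149 times the 5p strand in the 14 libraries with a 5p value above 0, and that of miR-8163 was 2.71 to 30.8 times in 14 libraries. The group with the highest mean was 12 h hypoxia for 6 of the 18 tested members, control for 4, 24 h hypoxia for 4, 3 h hypoxia for 3 and reoxygenation for 1. The same count was not made over all rows, so whether it is particular to the members cannot be told.

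Median GC content was 46.6% in the members, 45.5% in the salmon-named rows with lower numbers and 47.8% over all rows, and the median length was 22 bases in each. The base marks in the names were read as position, entry base and observed base, and only the observed base was checked. It stood at the given position for 7 of 7 members that carry a mark, and for 226 of 245 marks over all rows.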
